A study of Drosophila melanogaster with 12 samples.

Results

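A set of 10 genes of the DNA damage checkpoint and of double-strand break repair was followed across 4 ovary genotypes of Drosophila melanogaster. They included lok, grp, mei-41, tefu, p53, mus101, mus304, okr and spn-B. All probe sets that the platform's gene table assigns to them were taken, by current symbol or by FlyBase synonym. Of the 10, 8 were found with 11 probe sets among them, out of 11982 genes and 18952 probe sets in all. The other two, spn-B among them, were not analysed here.

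The checkpoint senses broken or single-stranded DNA, halts the cell cycle and, where repair fails, can lead to cell death. In fly ovaries it also acts on programmed breaks: when meiotic breaks are left unrepaired, as in okr or spn-B mutants, the kinases encoded by mei-41 and lok are known to block translation of the ligand Gurken and so disturb the polarity of the egg. A pair of kinases heads the response. Tefu is the fly ATM and responds to chromosome ends and breaks, while Mei-41 is the fly ATR and works with its partner Mus304 and its activator Mus101.

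Each genotype had 3 arrays, every array from about 100 pairs of ovaries of virgin females aged 4 to 6 h, and the labels call the replicates biological. The mutants were A2663/v and Pb/2, which the design text calls null for su(Hw), the gene of a zinc-finger insulator protein needed for female fertility, and the wild types were BL15598 and Canton S. Both mutants had an X chromosome with y[2], w[67c23], ct[6] and f[1]. Pb/2 had the alleles su(Hw)[e04061] and su(Hw)[2]. A2663/v had su(Hw)[A2663] with su(Hw)[2] by its genotype label, although its source label gives the second allele as v, and a P element, EPgy2, in CG6499 (allele EY02782). BL15598 had y[1], w[67c23] and the same EPgy2 insertion, and Canton S is listed with no allele. At this age, per the design text, egg chambers have reached stages 1 to 8, and the apoptosis of mutant chambers comes later, at stage 9; expression ahead of it is what was compared.

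All values are log2 signals of the probe sets, normalised across arrays by the authors, and all differences are log2 differences, mutant minus wild type unless another pair is named. A signal under log2 5 was taken as not measured, since GCRMA, the normalisation used, leaves probe sets without signal close together at the low end. The number of arrays, 3 per genotype, limits the precision. For su(Hw) itself the signal ran from 2.51 to 2.63 in A2663/v and from 2.66 to 3.42 in Pb/2, against 8.78 to 9.03 in BL15598 and 9.13 to 9.30 in Canton S. Of 10 germline marker genes, 9 were over log2 5 on all arrays of each genotype, including vas, osk and orb, and bgcn was under it on all of them. Of 8 follicle cell markers on the array, 7 were over it on all arrays of each genotype except BL15598, where 6 were; tj was under it throughout. Of 13 digestive enzyme genes, which mark gut, 10 were under log2 5 on all arrays of BL15598 and of Canton S, and 5 on all arrays of A2663/v and of Pb/2. Their mean ran from 2.24 to 5.60 across the mutant arrays and from 2.22 to 3.43 across the wild-type arrays, the 4 arrays over 4.6 being A2663/v replicates 1 and 3 and Pb/2 replicates 1 and 2. The 3′ minus 5′ log2 signal of 3 control genes, a measure of RNA quality, ran from 2.05 to 2.38 on mutant arrays and from 1.62 to 2.28 on wild-type arrays. Apart from Canton S replicate 3, at 2.28, the wild-type arrays lay at 1.62 to 1.85, under every mutant array. This measure was therefore largely confounded with mutant status, which limits every fit below that uses it as a covariate. In whole ovaries, more cells of a type and more RNA per cell cannot be told apart.

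Of the 8 genes, 7 were measured on enough arrays to be tested (over log2 5 on at least 3 of 12), and mus101 alone was more than 2-fold higher in the mutants. The genes lok and tefu passed the test (limma, adjusted p under 0.05) with smaller differences, 4 did not pass, and mei-41 was under log2 5 on every array. With a 2-fold minimum, 1 of 7 genes was called higher and 0 lower, where 3.98% and 1.85% of 6163 genes tested were. Without the fold minimum 3 of 7 passed, where 46.9% of all genes passed in either direction, so this count is near the background. By direction, 3 of 7 were higher and 0 lower, where 20.3% of all genes were higher and 26.6% lower. The median difference of the 7 was 0.12, beside -0.03 over all genes. Mutant and wild-type arrays, 6 of each, did not overlap for 1 of the 7, mus101, and for 13.7% of all genes. The listed genes were chosen with earlier results of these data known, the rise of mus101 among them. These counts and those of the single pairs below therefore describe the list and do not test it.

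**Figure D1:**
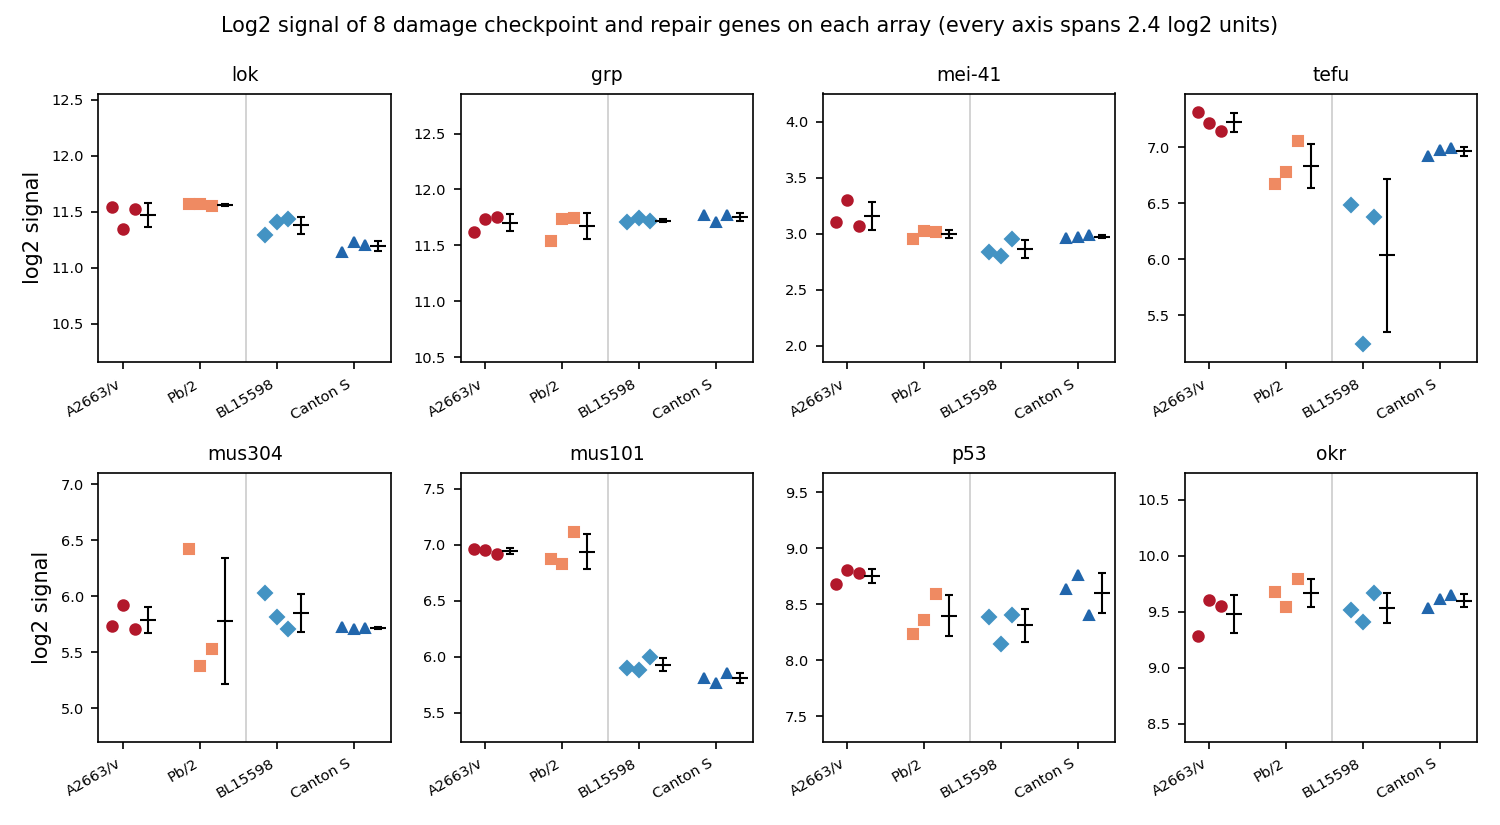
Log2 signal of each gene (vertical axis, spanning 2.4 log2 units in every panel) on the 3 arrays of each genotype, with mutants left of the grey line and wild types right of it; the black mark and bar beside the points give the mean and SD. For mus101 all mutant points lie at 6.82 or above and all wild-type points at 5.99 or below, while in every other panel mutant and wild-type points overlap.

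Mus101 is the fly counterpart of TopBP1, a protein of BRCT repeats that activates the ATR kinase and is also needed to start DNA replication. Its signal was 6.96, 6.96 and 6.92 in A2663/v and 6.87, 6.82 and 7.11 in Pb/2, against 5.90, 5.88 and 5.99 in BL15598 and 5.81, 5.77 and 5.85 in Canton S. Every mutant array lay above every wild-type array, and the gap between the lowest mutant and the highest wild-type array exceeded the range within any genotype. A2663/v averaged 6.94 ± 0.02 and Pb/2 6.94 ± 0.16, against 5.93 ± 0.06 in BL15598 and 5.81 ± 0.04 in Canton S (SD, n = 3 each).

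The log2 difference was 1.07 ± 0.09 (SE; limma adjusted p = 5.29e-07), a fold of 2.10 with a 95% confidence interval of 1.85 to 2.39, so the interval includes folds under the 2-fold minimum. In rank by rise mus101 stood 248th of 6163. It was called in all 4 pairs of a mutant and a wild type, as were 1.28% of all genes in the upward direction. The difference was 1.02 for A2663/v minus BL15598 (limma adjusted p = 2.97e-05), 1.13 for A2663/v minus Canton S (adjusted p = 1.33e-05), 1.01 for Pb/2 minus BL15598 (adjusted p = 3.09e-05) and 1.13 for Pb/2 minus Canton S (adjusted p = 1.32e-05). These 4 comparisons share their samples and are not independent. Between the mutants it was -0.01 for Pb/2 minus A2663/v, with an interval of -0.27 to 0.26, and between the wild types 0.12 for BL15598 minus Canton S, with an interval of -0.15 to 0.38.

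A2663/v replicate 2 and Pb/2 replicate 3, whose digestive enzyme genes averaged 2.24 and 2.33, had mus101 at 6.96 and 7.11. Without the 4 arrays with digestive enzyme signal the difference was 1.17 (limma adjusted p = 0.000361). With the 3′ minus 5′ signal as a covariate it was 0.99 ± 0.14 (SE; limma adjusted p = 0.000302), which falls just short of 2-fold. Canton S replicate 3, whose 3′ minus 5′ signal of 2.28 lay within the mutant range, had mus101 at 5.85, and the other Canton S arrays had 5.81 and 5.77. As this is 1 array, it cannot separate RNA quality from genotype.

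**Figure D2:**
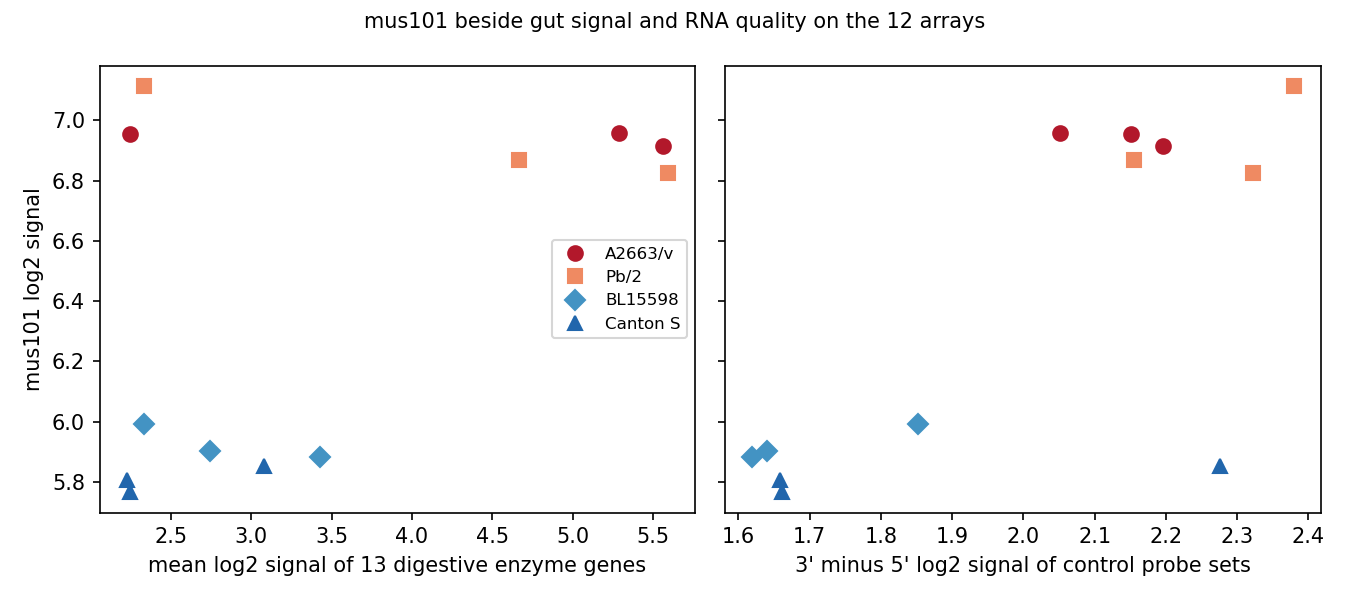
Log2 signal of mus101 (vertical axis) on the 12 arrays against the mean log2 signal of 13 digestive enzyme genes (left) and the 3′ minus 5′ log2 signal of control probe sets (right); colours and shapes give the genotype. The mutants with the lowest gut signal, at 2.24 and 2.33, have mus101 at 6.96 and 7.11, and the Canton S array with a 3′ minus 5′ signal of 2.28 has it at 5.85.

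By the RefSeq gene order, mus101 lies on the X chromosome between ct and f, both of which carry mutant alleles on the X shared by A2663/v and Pb/2. An effect of loss of su(Hw) on mus101 and one of that marked X cannot be told apart. Of 520 genes tested between ct and f, 21 were called higher and 17 lower with the 2-fold minimum, a share of 7.31%, beside 6.67% on the rest of the X and 4.53% to 6.41% on the arms of the large autosomes. Next to mus101 on one side lies g, the garnet gene of an AP-3 adaptor subunit, followed by Grip91, a gamma-tubulin ring protein. The difference was -0.15 ± 0.08 for g (SE; limma adjusted p = 0.126) and -0.04 ± 0.09 for Grip91 (adjusted p = 0.758), and neither passed. On the other side Mrgn1 is not named on the array, and Nna1, the next gene, rose by 0.34 ± 0.11 (adjusted p = 0.0185).

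The 5 genes whose signal followed that of mus101 most closely over the 12 arrays were dpr19, CG1695, Actbeta, tipE and CG2993, with Pearson correlations of 0.986 to 0.991. The 12 points share genotypes, and after the genotype means were removed the same correlations ran from -0.06 to 0.54. dpr19, a cell-surface protein gene of the dpr immunoglobulin family, averaged 8.86 in mutants and 6.04 in wild types, a difference of 2.82 ± 0.11 (SE). Actbeta, an activin-type ligand gene, was at least 3.22-fold higher and tipE, an auxiliary sodium channel subunit gene, at least 15.6-fold higher, as both lay under log2 5 on all wild-type arrays. CG1695 and CG2993 were likewise under it there, and were at least 5.66-fold and 7.13-fold higher. Apart from dpr19, these genes thus passed the filter through mutant arrays alone. Their correlations used the deposited values, of which those on wild-type arrays count as not measured, so they describe little beyond the gap between mutants and wild types.

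Of the other listed genes of the ATR branch, mus304 and grp did not pass and mei-41 could not be tested. The mei-41 probe set had 3.11, 3.30 and 3.06 in A2663/v and 2.96, 3.02 and 3.02 in Pb/2, against 2.84, 2.80 and 2.96 in BL15598 and 2.96, 2.97 and 2.98 in Canton S. All 12 values lay under log2 5, so mei-41 was not tested and its values have no order here. Mus304, the ATRIP partner that brings ATR to single-stranded DNA, had 5.73, 5.92 and 5.70 in A2663/v and 6.42, 5.38 and 5.53 in Pb/2, against 6.03, 5.81 and 5.70 in BL15598 and 5.73, 5.70 and 5.72 in Canton S. The groups overlapped, and Pb/2 alone covered the range of the other arrays. The log2 difference for mus304 was -0.001 ± 0.163 (SE; limma adjusted p = 0.996), with a 95% interval from -0.35 to 0.35, or 0.78 to 1.27 times the wild-type level.

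The gene grp encodes Chk1, the effector kinase downstream of ATR. It had 3 probe sets, and the brightest represented the gene: 11.62, 11.74 and 11.75 in A2663/v and 11.54, 11.74 and 11.74 in Pb/2, against 11.71, 11.74 and 11.72 in BL15598 and 11.77, 11.71 and 11.77 in Canton S. All 12 arrays lay within 0.23 log2 units. The difference was -0.05 ± 0.04 (SE; limma adjusted p = 0.394), with an interval of -0.14 to 0.05, the narrowest of the 7 genes.

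The other probe sets of grp behaved differently from the first. Probe set 1629880_at had 9.77, 9.60 and 9.46 in A2663/v and 10.24, 9.85 and 9.68 in Pb/2, against 9.84, 10.03 and 9.45 in BL15598 and 9.48, 11.003 and 9.59 in Canton S. Its range of 1.55 over the 12 arrays came mostly from Canton S replicate 2, and probe set 1625416_x_at was highest on the same array, at 9.76. Over the 12 arrays these probe sets correlated at 0.953 with each other, but at -0.38 and -0.44 with 1634230_s_at, the brightest. Tested separately, with adjustment over all probe sets, their differences were -0.13 ± 0.22 (SE; limma adjusted p = 0.648) for 1629880_at and -0.14 ± 0.16 (adjusted p = 0.515) for 1625416_x_at. By Affymetrix's naming, a set ending in x_at holds probes that also match other sequences, and which transcripts of grp each set reads was not analysed here.

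**Figure D3:**
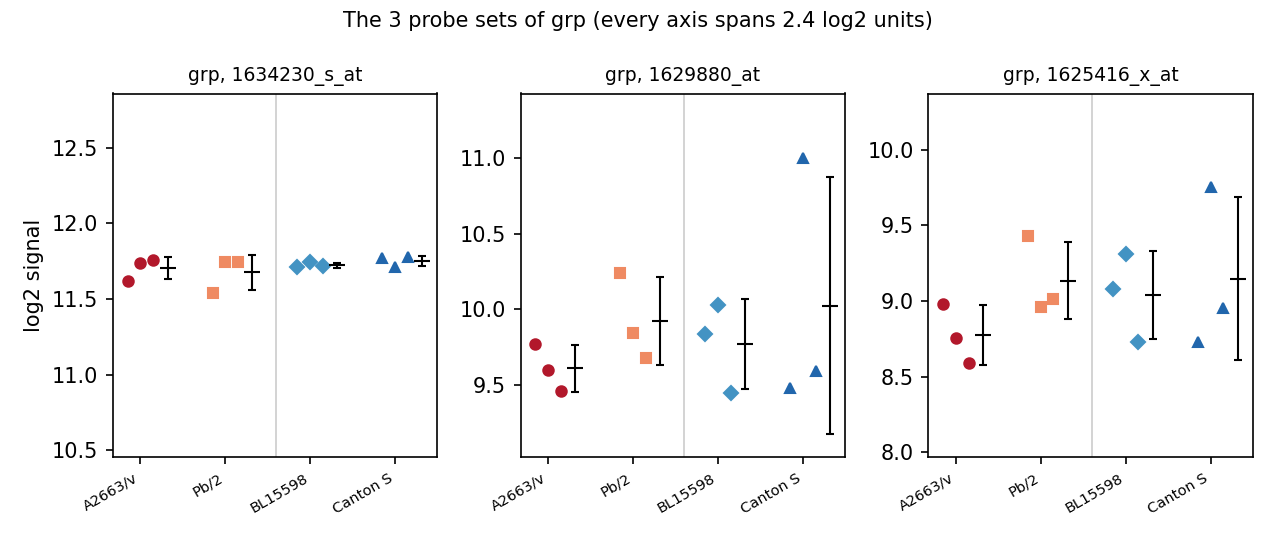
Log2 signal of the 3 probe sets of grp (vertical axis, spanning 2.4 log2 units in each panel) on the 3 arrays of each genotype, mutants left of the grey line and wild types right of it, with the mean and SD beside the points. The brightest set stays within 0.23 log2 units, while the other sets are highest in Canton S replicate 2, at 11.003 and 9.76.

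In the ATM branch, tefu rose on average, but the result rested on BL15598. Its signal was 7.31, 7.22 and 7.14 in A2663/v and 6.67, 6.78 and 7.05 in Pb/2, against 6.48, 5.25 and 6.38 in BL15598 and 6.92, 6.98 and 6.99 in Canton S. The A2663/v arrays lay above all others, the BL15598 arrays below all others, and Pb/2 overlapped Canton S. The average difference was 0.53 ± 0.18 (SE; limma adjusted p = 0.0248).

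Against BL15598 tefu was 1.19 higher in A2663/v (limma adjusted p = 0.00196), over the 2-fold minimum, and 0.80 higher in Pb/2 (adjusted p = 0.0198). Against Canton S the differences were 0.26 for A2663/v (adjusted p = 0.482) and -0.13 for Pb/2 (adjusted p = 0.738), and neither passed. Between the wild types tefu was lower in BL15598 than in Canton S by 0.93 (log2 difference -0.93 ± 0.25, SE; adjusted p = 0.0152). The value of BL15598 replicate 2 was 5.25, far under the other arrays of its genotype; without it the difference between mutants and wild types was 0.33 (adjusted p = 0.0121). Without Canton S replicate 1, Pb/2 replicate 3 or A2663/v replicate 1 in turn it was 0.52, 0.48 and 0.51 and did not pass (adjusted p = 0.0513, 0.0561 and 0.0515). It did not pass either with the 3′ minus 5′ signal as a covariate (adjusted p = 0.418), without the 4 arrays with digestive enzyme signal (adjusted p = 0.146) or with all genes on the array tested (adjusted p = 0.073).

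In the RefSeq gene order tefu is separated by Hsc70-4 alone from Amt, the present name of CG6499, which holds the P element of BL15598 and A2663/v. The genotypes with the insertion held the lowest mean of tefu, 6.04 ± 0.69 in BL15598, and the highest, 7.22 ± 0.08 in A2663/v (SD, n = 3 each). Hsc70-4, a constitutive chaperone gene, rose by 0.09 ± 0.03 (SE; limma adjusted p = 0.021), and Amt was not tested because too few arrays exceeded log2 5.

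The gene lok encodes Chk2, the effector kinase that links the damage signal to p53 and, in the oocyte, to the meiotic checkpoint. It had 11.55, 11.35 and 11.53 in A2663/v and 11.57, 11.57 and 11.55 in Pb/2, against 11.30, 11.41 and 11.43 in BL15598 and 11.14, 11.24 and 11.20 in Canton S. The order of means was Pb/2, A2663/v, BL15598 and Canton S, and 1 A2663/v array, at 11.35, lay within the range of BL15598. The gene rose by 0.23 ± 0.04 (SE; limma adjusted p = 0.000919), a 1.17-fold difference.

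Against Canton S, lok was higher by 0.28 in A2663/v (limma adjusted p = 0.00498) and by 0.37 in Pb/2 (adjusted p = 0.000683). Against BL15598 it was higher by 0.18 in Pb/2 (adjusted p = 0.0313), while the difference of 0.09 in A2663/v did not pass (adjusted p = 0.248). BL15598 itself lay 0.18 above Canton S (adjusted p = 0.0448), as large as the gap between Pb/2 and BL15598, but this call was lost in 16 of 26 alternatives (adjusted p = 0.031 to 0.137 over all of them). Without the 4 arrays with digestive enzyme signal, the average difference of lok was 0.16 (adjusted p = 0.0949) and did not pass.

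The p53 gene encodes the transcription factor that Chk2 activates and that turns on cell death genes after damage. Its signal was 8.68, 8.80 and 8.78 in A2663/v and 8.24, 8.36 and 8.59 in Pb/2, against 8.39, 8.14 and 8.40 in BL15598 and 8.64, 8.76 and 8.41 in Canton S. The A2663/v arrays overlapped those of Canton S, and the Pb/2 arrays those of BL15598. The average difference was 0.12 ± 0.08 (SE; limma adjusted p = 0.265), with an interval of -0.06 to 0.30.

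In order of their means the genotypes ran A2663/v at 8.75 ± 0.07, Canton S at 8.60 ± 0.18, Pb/2 at 8.40 ± 0.18 and BL15598 at 8.31 ± 0.15 (SD, n = 3 each), and no neighbours in that order differed by the test. A2663/v was 0.44 above BL15598 (limma adjusted p = 0.00966). Pb/2 minus A2663/v was -0.36 ± 0.12 (SE; adjusted p = 0.0935) and BL15598 minus Canton S was -0.29 ± 0.12 (adjusted p = 0.0943), and these did not pass. Without Pb/2 replicate 3 the first was -0.45 and passed (adjusted p = 0.0453), and without Canton S replicate 3 the BL15598 comparison passed (adjusted p = 0.039). A second p53 probe set lay between 2.32 and 2.38 on all arrays, under log2 5.

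Of the recombination genes on the list, okr was the 1 measured. It encodes Rad54, a DNA-dependent ATPase that acts in strand invasion. Its signal was 9.29, 9.60 and 9.55 in A2663/v and 9.68, 9.54 and 9.79 in Pb/2, against 9.52, 9.41 and 9.67 in BL15598 and 9.54, 9.61 and 9.65 in Canton S. The groups overlapped, and the difference was 0.01 ± 0.07 (SE; limma adjusted p = 0.932), with an interval of -0.15 to 0.16.

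**Figure D4:**
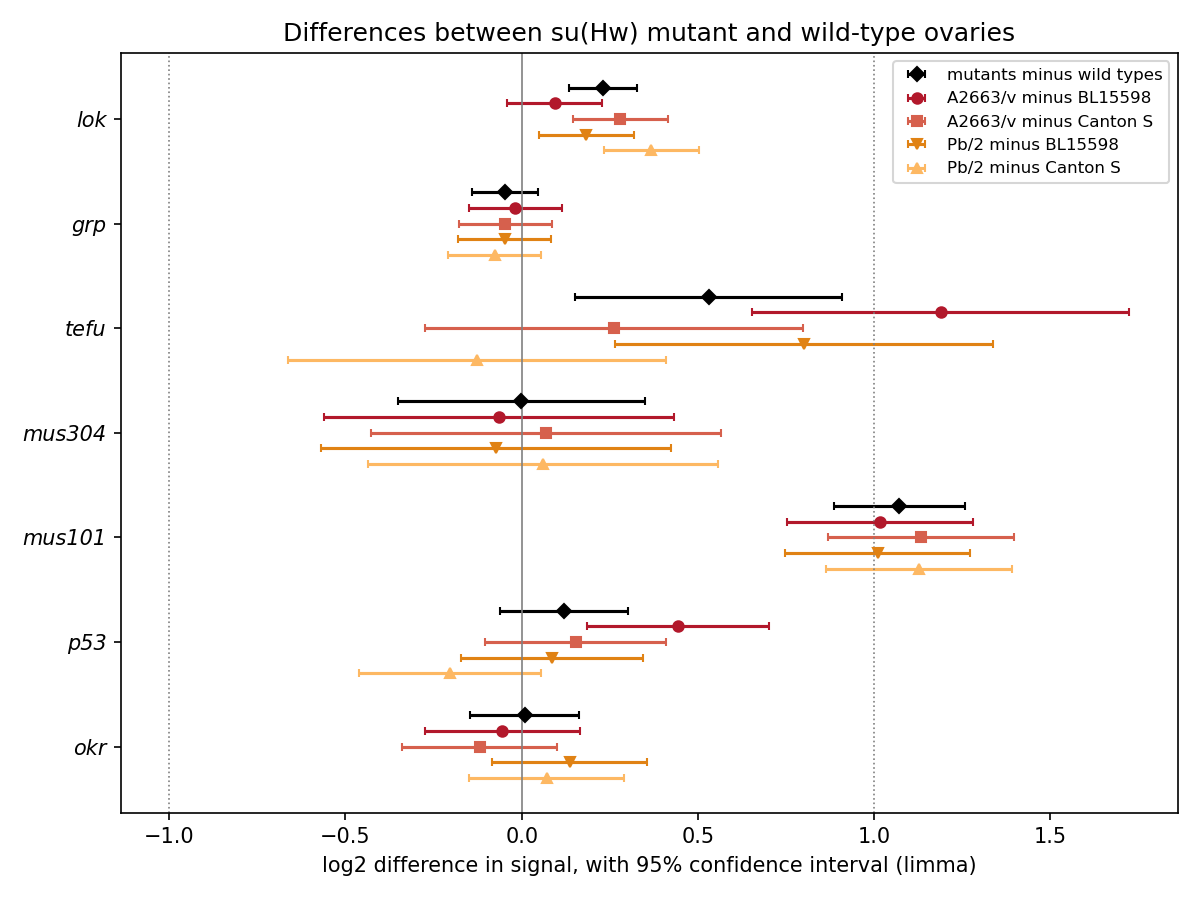
Log2 difference (horizontal axis) of 7 genes between mutants and wild types on average and for each of the 4 pairs, with 95% confidence intervals from limma; dotted lines mark 2-fold. The intervals of mus101 lie above 0 in all 5 comparisons, those of tefu only where BL15598 enters, and those of grp, mus304 and okr all include 0.

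In the 4 pairs of a mutant and a wild type, none of the 7 genes was called lower by limma. Against BL15598, 3 of 7 passed in A2663/v (tefu, p53 and mus101), where 40.9% of all genes passed, and 2 of them reached 2-fold, where 7.43% did. In Pb/2 against BL15598 3 of 7 passed (tefu, lok and mus101; 42.8% of all genes) and 1 reached 2-fold (7.67%). Against Canton S, 2 of 7, lok and mus101, passed in A2663/v (26.9% of all genes) and in Pb/2 (28.5%), and 1 reached 2-fold in each (5.76% and 5.74%). Between the mutants 0 of 7 passed, where 8.03% of all genes passed and 2.09% with the 2-fold minimum; 1 of the 7, p53, had an unadjusted p under 0.05, at 0.0104 in limma. Between the wild types 2 of 7 passed, lok higher and tefu lower in BL15598, where 25.4% of all genes passed, and 0 reached 2-fold, where 5.09% did.

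Other genes of the damage response were described in 11 lists with 102 genes, of which 83 were on the array and 75 were tested. With the 2-fold minimum 1 of 75 was called, XRCC1. Without it, 27 of 75 were higher and 11 lower, where 20.3% of all genes were higher and 26.6% lower, and the median difference was 0.15 beside -0.03 over all genes. With each array centred on its median, all genes split into 1632 higher and 1223 lower, in place of 1251 and 1641, and the 75 into 32 and 10. Without the 4 arrays with digestive enzyme signal 16 of the 75 were higher and 4 lower. Of all 6163 genes 762 were higher and 743 lower there, or 24.4% in either direction. With the 3′ minus 5′ signal as a covariate 12 of the 75 were higher and 3 lower. Of all 6163 genes 638 were higher and 748 lower there, or 22.5% in either direction. In all 4 pairs of a mutant and a wild type, 4 of the 75 were higher, RPA3, XRCC1, PolH and aub (4.14% of all genes), and 1 was lower, Fancm (5.31%). All mutant arrays of Fancm were under log2 5, so it passed the filter through wild-type arrays alone. Its calls in the 4 pairs used the deposited values, so the size of these differences is not measured. Of 32 genes named from the lists, 16 still passed in the same direction without the 4 arrays, 12 with the covariate and 7 in both: RPA1, RPA3, fzy, XRCC1, Rrp1, PolH and spn-E. Every other gene named from the lists lost its call in at least 1 of these settings. With each mutant set against Canton S alone 10 passed, and against BL15598 alone 17.

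**Figure D5:**
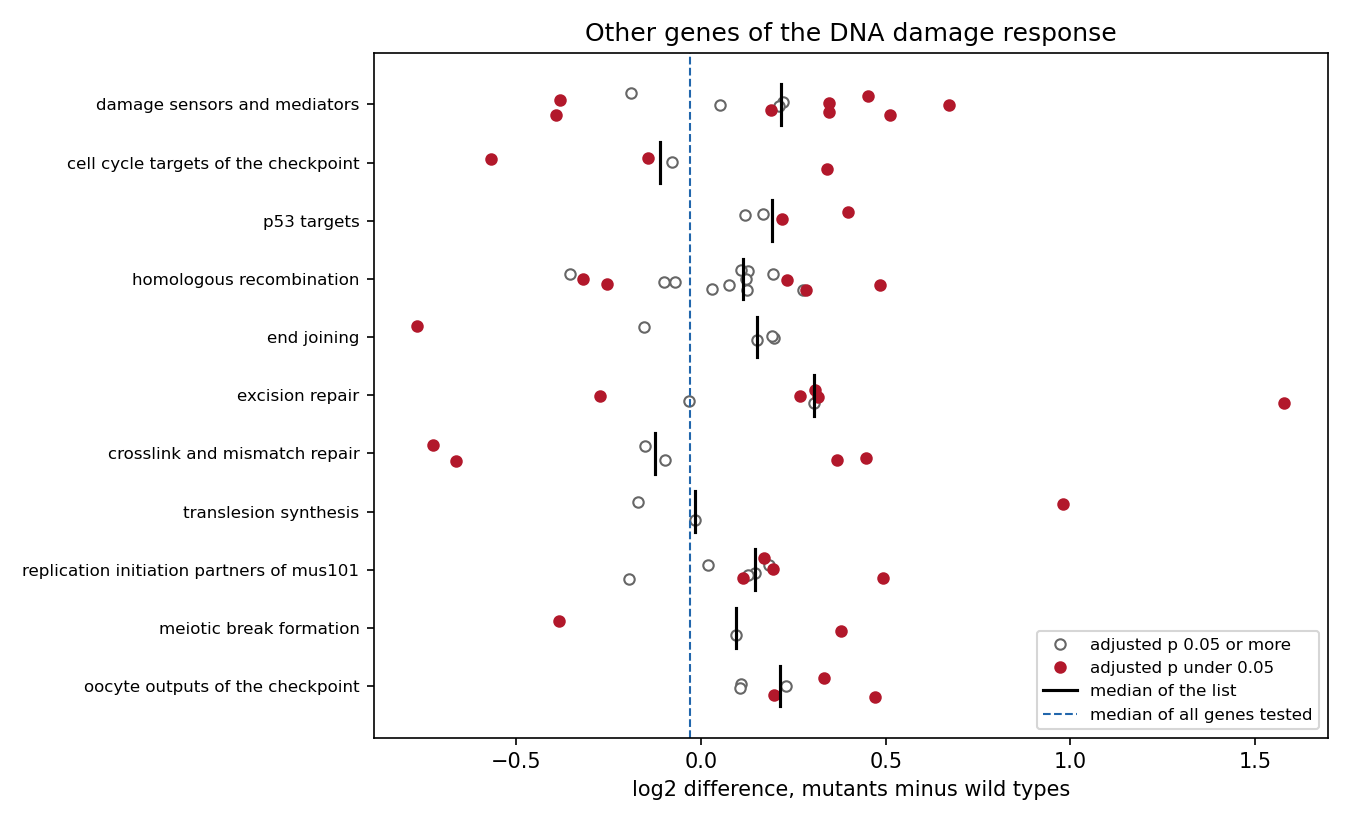
Log2 difference between mutants and wild types (horizontal axis) of the tested genes in 11 lists of damage response genes; filled points passed an adjusted p under 0.05 (limma), black bars are list medians and the dashed line is the median of all genes, at -0.03. XRCC1, at 1.58, and PolH, at 0.98, stand to the right of all other genes.

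Among damage sensors and mediators, 6 of 12 tested genes rose and 2 fell, beside 20.3% and 26.6% of all genes, the same background holding for each list that follows. Of the 6 that rose, RPA3 alone passed against Canton S in both mutants. RPA3, a subunit of the complex that coats single-stranded DNA and recruits Mus304, rose by 0.45 ± 0.07 (SE; limma adjusted p = 0.000199), and its mutant arrays, at 11.84 to 12.32, did not overlap the wild-type arrays, at 11.39 to 11.72. RPA1, the large subunit, rose by 0.67 ± 0.06 (adjusted p = 1.43e-06), but this rested on BL15598: A2663/v averaged 11.20 and Pb/2 11.45, against 10.07 in BL15598 and 11.24 in Canton S. Claspin, the adaptor through which ATR phosphorylates Chk1, rose by 0.51 ± 0.19 (adjusted p = 0.0378), and with the 3′ minus 5′ signal as a covariate its difference was 0.05 (adjusted p = 0.917). Rad17, loader of the checkpoint clamp, fell by 0.39 on the log2 scale (-0.39 ± 0.11, SE; adjusted p = 0.0113), and without the 4 arrays with gut signal it did not pass, at -0.20 (adjusted p = 0.288).

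Of the cell cycle targets of the checkpoint, 1 of 4 tested rose and 2 fell. The gene twe, the Cdc25 phosphatase of meiosis, had a difference of -0.57 ± 0.10 (SE; limma adjusted p = 0.000687), and averaged 6.80 on A2663/v arrays and 6.97 on Pb/2 arrays, against 7.68 in BL15598 and 7.22 in Canton S. Against Canton S it was -0.25 in Pb/2 and did not pass (adjusted p = 0.222). CycB, the mitotic cyclin, was lower on every mutant array than on any wild-type array, by -0.14 ± 0.03 (adjusted p = 0.00241), but against Canton S neither mutant passed, A2663/v at -0.11 (adjusted p = 0.0883) nor Pb/2 at -0.07 (adjusted p = 0.234). The gene fzy, an activator of the anaphase-promoting complex, rose by 0.34 ± 0.06 (adjusted p = 0.000868) but this rested on BL15598: BL15598 minus Canton S was -0.57 (adjusted p = 0.000485).

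Of genes known as p53 targets, 2 of 4 tested rose and 0 fell. The TNF ligand gene egr (eiger) had 6.91 to 7.14 on mutant arrays and 6.42 to 6.78 on wild-type arrays, a difference of 0.40 ± 0.09 (SE; limma adjusted p = 0.00268), though against Canton S alone it was 0.33 in A2663/v (adjusted p = 0.0688) and 0.28 in Pb/2 (adjusted p = 0.11), which did not pass. RnrL, the large subunit of ribonucleotide reductase, rose by 0.22 ± 0.07 (adjusted p = 0.0165), and passed against Canton S in neither mutant (adjusted p = 0.103 for A2663/v and 0.619 for Pb/2). The array table names no probe set for rpr, hid or Xrp1, so these cell death genes and this regulator were not analysed here.

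In the repair pathways proper, XRCC1, the scaffold of single-strand break repair, rose by 1.58 ± 0.18 (SE; limma adjusted p = 1.45e-05). It lay at 6.61 to 7.05 in A2663/v and 6.19 to 6.68 in Pb/2, against 3.97 to 5.04 in BL15598 and 5.26 to 5.86 in Canton S. As 2 of the 6 wild-type arrays were under log2 5, the difference was also taken with values raised to 5, and was then 1.34. Pb/2 minus Canton S was 0.88, under 2-fold (adjusted p = 0.0205). Both wild-type arrays under log2 5 were of BL15598, so the size of the differences from that genotype is not measured.

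PolH, the translesion polymerase eta, rose by 0.98 ± 0.10 (SE; limma adjusted p = 3.92e-06), just under 2-fold. A2663/v averaged 9.59 ± 0.03 and Pb/2 9.62 ± 0.08, against 8.55 ± 0.28 in BL15598 and 8.69 ± 0.24 in Canton S (SD, n = 3 each). The mutant arrays, at 9.53 to 9.70, lay above all wild-type arrays, at 8.29 to 8.85. It was the 1 gene of 3 translesion genes tested that passed. Without the 4 arrays with digestive enzyme signal its difference was 1.04 (adjusted p = 0.00282), over the minimum.

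The remaining excision repair genes that passed changed less. Of 7 tested, 4 rose and 1 fell, among them Rrp1, an endonuclease at abasic sites (0.32 ± 0.06, SE; limma adjusted p = 0.000518), Xpc, which recognises damage (0.31 ± 0.08, adjusted p = 0.00628), and Ogg1, a glycosylase for oxidised guanine (-0.27 ± 0.07, adjusted p = 0.00687). With the 3′ minus 5′ signal as a covariate Xpc was at 0.05 (adjusted p = 0.722), and against Canton S it passed in neither mutant (adjusted p = 0.363 for A2663/v and 0.302 for Pb/2). In the homologous recombination list 3 of 16 rose and 2 fell. SMC5, of the Smc5/6 complex, rose by 0.48 ± 0.09 (adjusted p = 0.000483) and Ercc1 by 0.28 ± 0.07 (adjusted p = 0.00683), while Blm, the helicase that dissolves recombination intermediates, had -0.32 ± 0.07 (adjusted p = 0.0014). Ercc1's nuclease partner mei-9 moved the other way, at -0.25 ± 0.09 (adjusted p = 0.0321). In single pairs Ercc1 passed in A2663/v but not in Pb/2 (limma adjusted p = 0.0925 against Canton S and 0.181 against BL15598). Against Canton S mei-9 passed in neither mutant (adjusted p = 0.282 for A2663/v and 0.48 for Pb/2). SMC5 did not pass in Pb/2 against Canton S, at 0.17 (adjusted p = 0.299), nor did Rrp1, at 0.16 (adjusted p = 0.147). Ogg1 passed against Canton S in neither mutant (adjusted p = 0.0604 for A2663/v and 0.0514 for Pb/2). Blm did not pass in A2663/v against BL15598, at -0.13 (adjusted p = 0.282).

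Of 5 end joining genes 1 fell, CG12728, to which the RefSeq table gives the synonym XRCC4, at -0.77 ± 0.15 (SE; limma adjusted p = 0.00123); with the 3′ minus 5′ signal as a covariate it was -0.21 (adjusted p = 0.378). Of 6 crosslink and mismatch repair genes 2 rose and 2 fell. Fancd2 rose by 0.45 ± 0.14 (adjusted p = 0.021) and its partner FANCI by 0.37 ± 0.11 (adjusted p = 0.0165). With the 3′ minus 5′ signal as a covariate they were at 0.16 (adjusted p = 0.628) and 0.05 (adjusted p = 0.844). Against Canton S neither passed, Fancd2 at 0.28 for A2663/v and 0.03 for Pb/2, and FANCI at 0.37 for A2663/v and 0.16 for Pb/2. Fancm, a DNA translocase, was at least 1.18-fold lower (adjusted p = 0.0449 with values raised to 5, 0.0014 as deposited), with all mutant arrays under log2 5 and 5 of 6 wild-type arrays over it. Fancl, the ubiquitin ligase of that pathway, was over log2 5 in Canton S alone, at 6.37 ± 0.05 (SD, n = 3), and its call rests on that genotype.

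Of the replication initiation genes that act with Mus101's counterparts, 4 of 9 tested rose and 0 fell, each by less than 1.5-fold. They were the GINS subunit genes Psf1, Psf2 and Psf3, at 0.49 ± 0.17, 0.19 ± 0.07 and 0.11 ± 0.04 (SE; limma adjusted p = 0.0297, 0.0414 and 0.0412), and the sliding clamp gene PCNA, at 0.17 ± 0.04 (adjusted p = 0.00734). The rise of Psf1 rested on Canton S, where its mean was 5.10, against 6.60 in BL15598, which lay beside 6.63 in A2663/v and 6.06 in Pb/2. Its Canton S arrays, at 4.82 to 5.60, lay partly under log2 5, and with values raised to 5 the difference of Psf1 was 0.44 (limma adjusted p = 0.0311). PCNA passed in A2663/v, at 0.25 against BL15598 and 0.30 against Canton S (adjusted p = 0.00695 and 0.00345), but not in Pb/2, at 0.04 and 0.09 (adjusted p = 0.632 and 0.299). Psf2 and Psf3 passed in none of the 4 pairs. In the average of mutants against wild types none of the 4 reached the difference seen for mus101, a comparison of sizes that was not itself tested. In A2663/v minus Canton S, however, Psf1 was at 1.53 and mus101 at 1.13.

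Of the 3 genes tested for meiotic break formation and crossing over, 1 rose and 1 fell. The gene mei-W68, the fly Spo11 that makes the breaks, rose by 0.38 ± 0.13 (SE; limma adjusted p = 0.0305) through A2663/v alone: its mean was 6.07 there and 5.29 in Pb/2, against 5.29 in BL15598 and 5.31 in Canton S, and Pb/2 minus A2663/v was -0.78 (adjusted p = 0.0196). The gene rec, an MCM-related factor of crossing over, had -0.38 ± 0.09 (adjusted p = 0.00265) with no overlap between mutant and wild-type arrays. In Pb/2 against BL15598 rec did not pass, at -0.26 (limma adjusted p = 0.0987). With the 3′ minus 5′ signal as a covariate it did not pass either, at -0.21 (adjusted p = 0.271). Of 6 genes on which the oocyte checkpoint acts or that act beside it, 3 rose and 0 fell: spn-E and aub, both of the piRNA pathway, by 0.47 ± 0.07 (adjusted p = 0.000136) and 0.33 ± 0.06 (adjusted p = 0.000627), and grk, the gene of Gurken, by 0.20 ± 0.07 (adjusted p = 0.0353). For spn-E, Pb/2 minus Canton S was 0.21 and did not pass (limma adjusted p = 0.127), and Pb/2 minus A2663/v was -0.37 (adjusted p = 0.0391). Against Canton S alone grk did not pass, with 0.09 for A2663/v and 0.08 for Pb/2 (limma adjusted p = 0.576 for both). The checkpoint is known to act on Gurken at translation, which these arrays do not measure.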

How the data were processed

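The data are 12 arrays of 18952 probe sets, hybridised with biotin-labelled cDNA amplified from 50 ng of ovary RNA, per the labels' protocols. The deposited values are log2 signals made by the authors with Partek 6.5 and GCRMA, per the submitters' processing notes; their settings are not given in any source used here, and no coordinates are printed. They ran from 1.60 to 15.64, and 61.9% lay under 5. All value columns were used.

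Gene names came from the platform's annotation: 13647 named 1 gene, 402 several, 4720 none, and 183 were controls. Symbols were updated by gene identifier for 13544 of them through a RefSeq table (Release 6 plus ISO1 MT), which also gave gene order. A gene was represented by its probe set of highest mean, and genes over log2 5 on at least 3 of 12 arrays were tested, 6163 of 11982. limma 3.58.1 in R 4.3.3 fitted 4 genotype means to all arrays, with variances following mean signal and Benjamini-Hochberg adjustment over all genes tested. Calls needed an adjusted p under 0.05, with or without a 2-fold minimum. A fold "at least N" used values raised to 5. The fit was tested on simulated data. A listed gene is not reported here. The text names the other listed genes, su(Hw), up to 4 genes per list that passed, the 5 genes most like mus101 and, chosen after values were seen, gene neighbours. The 3′ minus 5′ measure used actin, GAPDH and eIF-4a control sets, leaving out ribosomal RNA. Promoter motifs were not searched, as no sequence was used here. The 10 genes and the lists were chosen with earlier results of these data known. Arrays with the same replicate number did not deviate together more than others did (correlations -0.53 to 0.37, against -0.39 to 0.61 for other numbers). The numbers were therefore not used to pair samples, although with 3 arrays per genotype this is a weak check. Alternatives were other filters, a floor, normalisations, probe set rules, variance models, thresholds, covariates, a replicate block and fits without arrays.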

Additional observations from a re-analysis of the deposited data

How the results depend on the processing

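The rise of mus101 kept its direction and an adjusted p under 0.05 (limma) in all 25 alternatives, at 0.99 to 1.17, and lok did so in 24 of 25 and tefu in 19 of 25. With the 3′ minus 5′ signal as a covariate 0 of the listed genes reached 2-fold in mutants against wild types, in place of 1; leaving out single arrays kept 1. Without the fold minimum the count, 3, was 1 without the 4 arrays with digestive enzyme signal, and 2 to 3 with single arrays left out. In all 4 pairs the count of 1 became 0 with cyclic loess, array weights and the covariate, and was 0 to 1 with single arrays left out (0 without BL15598 replicate 1 or 2 or Pb/2 replicate 3). Between the mutants, without the fold minimum, array weights gave 1 (p53) in place of 0, and leave-outs 0 to 1. Between the wild types the 2-fold count was 1 at 1.5-fold in place of 0, and 0 to 1 in leave-outs; without the fold minimum it was 2, but 0 with no filter, with only the arrays compared and without the 4 arrays, 1 with median centring, cyclic loess, no variance trend, the replicate block and the digestive signal as a covariate, 3 with array weights, and 1 to 2 in leave-outs. Of the 75 other damage response genes, 2 in place of 1 reached 2-fold with median centring, either covariate and without the 4 arrays, 6 at 1.5-fold, and 1 to 2 in leave-outs; without the fold minimum 15 passed with the 3′ minus 5′ covariate and 20 without the 4 arrays, in place of 38, and 31 to 40 in leave-outs. The cause was not tested. With the replicate number as a block mus101 differed by 1.07 (adjusted p = 2.68e-06), and the one changed count was that between the wild types. The number of arrays, and signal near log2 5 for genes such as XRCC1, Fancm, Fancl, Claspin, Psf1, mei-W68 and mus304, limit what could be detected.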
